A study of Mus musculus with 12 samples.

Results

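The genes described here are the amino acid transporters of the solute carrier families Slc1, Slc3, Slc6, Slc7, Slc36, Slc38 and Slc43, in spermatogonia at successive steps toward differentiation. Membership went by name. A gene belonged to the set where the array files named it with one of these family symbols and a member number. The rule found 59 genes, measured by 76 probes, among 36315 named genes or transcripts and 55681 probes on the array. Of these genes, 45 had 1 probe, 11 had 2 and 3 had 3. Names with a further letter after the member number, such as Slc6a20a, were outside the rule.

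RNA was measured on Agilent 1-color mouse arrays in 4 groups of 3 arrays, all from C57BL/6 mice aged 10 to 11 weeks. The GFRα1+ group was the GFP+ fraction of GFRα1-EGFP knock-in mice. The NGN3+ group was the GFP+/KIT− fraction and the KIT+ group the GFP+/KIT+ fraction of Ngn3-EGFP transgenic mice, in which GFP outlasts Ngn3 expression. The fourth group was whole testes of wild-type littermates of the knock-in line. Each sorted sample held 10000 to 20000 cells, with 2 mice pooled for each NGN3+ sample and a single mouse behind each of the others. From each sample 25 ng of RNA went into labeling. The GFRα1+ fraction therefore differed from the other sorted fractions in mouse line as well as in cell state, and these cannot be told apart.

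Amino acid transporters are membrane proteins that each carry a set of amino acids or related small molecules. Many are driven by sodium, by protons or by exchange for another amino acid. System A carriers (Slc38a1, Slc38a2 and Slc38a4) pump small neutral amino acids and glutamine inward with sodium. The Slc7 light chains are exchangers that reach the surface only when bound to a heavy chain of the Slc3 family. Some carriers sit on the lysosome, where amino acids are sensed by the mTORC1 kinase complex. The Slc6 family also carries GABA, glycine, taurine, creatine and monoamines. In the testis, GFRα1+ spermatogonia include the stem cells, they give rise to NGN3+ progenitors, and these become KIT+ differentiating spermatogonia.

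Levels are log2 intensities relative to the 75th percentile of each array, so that a level of 0 is at that percentile. A probe was taken as measured on an array where the scanner software called it well above background. Levels of different probes were not compared with each other, because probes differ in brightness. The RNA was from bulk fractions, so fewer cells with a transcript and less transcript per cell cannot be told apart. Gfra1, the GDNF co-receptor, had its highest sorted level in GFRα1+ cells, 1.65 ± 0.16 (SD, n = 3) against −1.22 ± 0.23 in NGN3+ cells. Neurog3, which encodes NGN3, was at 5.23 ± 0.43 in NGN3+ cells and 4.13 ± 0.21 in GFRα1+ cells. Kit was at 4.55 ± 0.11 in KIT+ cells and 1.96 ± 0.58 in NGN3+ cells. The arrays lay on 3 slides: all NGN3+ and KIT+ arrays and GFRα1+ replicate 3 shared 1 slide, GFRα1+ replicates 1 and 2 shared another with whole testes replicate 1, and the other two whole testes arrays were on the last.

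Markers of other testis cells were not equal between the fractions. The linear levels of 12 spermatid markers summed to 27.7 to 63.0 on GFRα1+ arrays, 1311 to 1603 on NGN3+ arrays, 1572 to 1971 on KIT+ arrays and 5109 to 6356 in whole testes, and NGN3+ exceeded GFRα1+ cells in all 12. In the same comparison 10 of 12 spermatocyte markers, 11 of 15 tested Sertoli cell markers and 7 of 8 peritubular myoid cell markers were higher. Between KIT+ and NGN3+ cells none of the 12 spermatid markers passed the test and 1 of 12 spermatocyte markers was higher. In KIT+ cells 5 of 8 myoid, 4 of 8 tested endothelial and 3 of 15 Sertoli cell markers were lower. Of all genes tested, 17.5% were higher and 17.0% lower in KIT+ than in NGN3+ cells. The endothelial markers summed to 10.6 to 16.2 on GFRα1+, 5.99 to 12.1 on NGN3+, 5.43 to 5.62 on KIT+ and 22.5 to 27.8 on whole testes arrays. The part of these cells in the results below was not tested. Of the 8 Leydig cell markers on the array, Hsd3b1, Hsd3b6, Lhcgr, Cyp11a1 and Hsd17b3 were well above background on no sorted array. Lhcgr was so on no whole testes array either. All 8 summed to 6.40 to 11.2 on GFRα1+, 3.49 to 4.93 on NGN3+, 4.67 to 4.76 on KIT+ and 27.5 to 34.2 on whole testes arrays.

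The promoters shown are of some of the Slc38 members that were lower in KIT+ than in NGN3+ cells, and of Slc7a8, which was higher there. They are the 250 bases before the annotated start, from RefSeq on GRCm38.p6, read 5′ to 3′ on the strand of the gene. The table held 41 of the 59 genes, with 61 starts. Slc38a1 was not among these genes, and Slc38a4, which had several starts, is not shown, although both were also lower in KIT+ cells. Capitals mark the GC box letters GGGCGG and the E-box letters CACGTG, searched on both strands, which do not overlap in these windows.
Slc38a2, chr15:96699729-96699978, minus strand: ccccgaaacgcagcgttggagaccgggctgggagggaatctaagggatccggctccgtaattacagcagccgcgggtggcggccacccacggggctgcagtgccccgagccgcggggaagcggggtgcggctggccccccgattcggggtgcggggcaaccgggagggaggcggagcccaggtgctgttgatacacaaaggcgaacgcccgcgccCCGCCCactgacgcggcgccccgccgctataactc
Slc38a9, chr13:112660516-112660765, plus strand: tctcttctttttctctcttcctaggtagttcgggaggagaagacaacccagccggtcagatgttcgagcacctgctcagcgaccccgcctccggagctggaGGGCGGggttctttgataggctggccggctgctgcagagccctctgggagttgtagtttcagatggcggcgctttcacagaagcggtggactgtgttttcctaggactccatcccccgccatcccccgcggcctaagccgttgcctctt
Slc38a7, chr8:95853492-95853741, minus strand: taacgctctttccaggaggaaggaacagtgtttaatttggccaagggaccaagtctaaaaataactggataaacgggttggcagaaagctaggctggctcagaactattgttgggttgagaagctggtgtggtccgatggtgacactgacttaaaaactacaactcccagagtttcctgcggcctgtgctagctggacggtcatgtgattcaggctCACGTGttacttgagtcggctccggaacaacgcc
Slc38a5, chrX:8271131-8271380, plus strand: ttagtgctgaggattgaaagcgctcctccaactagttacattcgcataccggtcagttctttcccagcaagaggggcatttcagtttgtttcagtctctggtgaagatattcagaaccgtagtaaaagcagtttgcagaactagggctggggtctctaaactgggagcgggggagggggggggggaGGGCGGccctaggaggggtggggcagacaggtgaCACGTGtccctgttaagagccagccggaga
Slc7a8, chr14:54781887-54782136, minus strand: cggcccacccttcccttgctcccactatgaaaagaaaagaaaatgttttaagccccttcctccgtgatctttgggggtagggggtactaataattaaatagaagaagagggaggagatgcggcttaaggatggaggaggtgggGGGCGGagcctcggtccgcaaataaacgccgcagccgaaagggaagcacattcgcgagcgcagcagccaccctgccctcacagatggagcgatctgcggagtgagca

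The GC box letters stood in 30 of the 61 member windows (49.2%) and in 32.7% of all 32851 promoter windows of the same length. The E-box letters stood in 9 member windows (14.8%) and in 6.02% of all. The core letters of the amino acid response element, TGATGNAA, stood in 3 member windows (4.92%), those of Slc7a7 and Slc7a11, and in 3.45% of all. These matches describe the sequence only.

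More transporters were lower than higher in KIT+ than in NGN3+ cells, where rises and falls over all genes were near equal. The same held in KIT+ against GFRα1+ cells, where more of all genes were lower than higher too. The balance between NGN3+ and GFRα1+ cells turned with the scaling given below. Testing required that every array of 1 or both groups measured the probe, and a gene was called at a limma adjusted p under 0.05. Of 39 members tested between NGN3+ and GFRα1+ cells, 6 were higher in NGN3+ cells (15.4%, against 20% of all genes tested) and 11 were lower (28.2%, against 36.3%). Between KIT+ and NGN3+ cells, 41 were tested, 6 were higher in KIT+ cells (14.6%, against 17.5%) and 14 were lower (34.2%, against 17.0%). Between KIT+ and GFRα1+ cells, 42 were tested, 8 were higher (19.1%, against 26.6%) and 20 were lower (47.6%, against 39.4%). The median log2 ratio of the members tested was −0.10, −0.21 and −0.32 in these comparisons, and that of all genes −0.19, 0.05 and −0.15.

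Levels of 22 members did not overlap between NGN3+ and GFRα1+ arrays, where 62.6% of all genes tested did not. The count was 26 between KIT+ and NGN3+ arrays, against 50.4% of all genes, and 29 between KIT+ and GFRα1+ arrays, against 70.3%. The first split depended on the scaling. With the percentile set from only those probes that all arrays measured, which moved the median ratio of all genes from −0.19 to −0.02, 10 members were higher and 8 lower in NGN3+ cells. The same scaling moved the median of all genes from −0.15 to −0.03 between KIT+ and GFRα1+ cells and from 0.39 to −0.02 between GFRα1+ cells and whole testes. Of 102 single-gene results of transporters named by the rule in the methods, 92 were called. None of the 92 changed direction with this scaling. A change of sign in a result called in neither scaling was not counted.

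**Figure D1:**
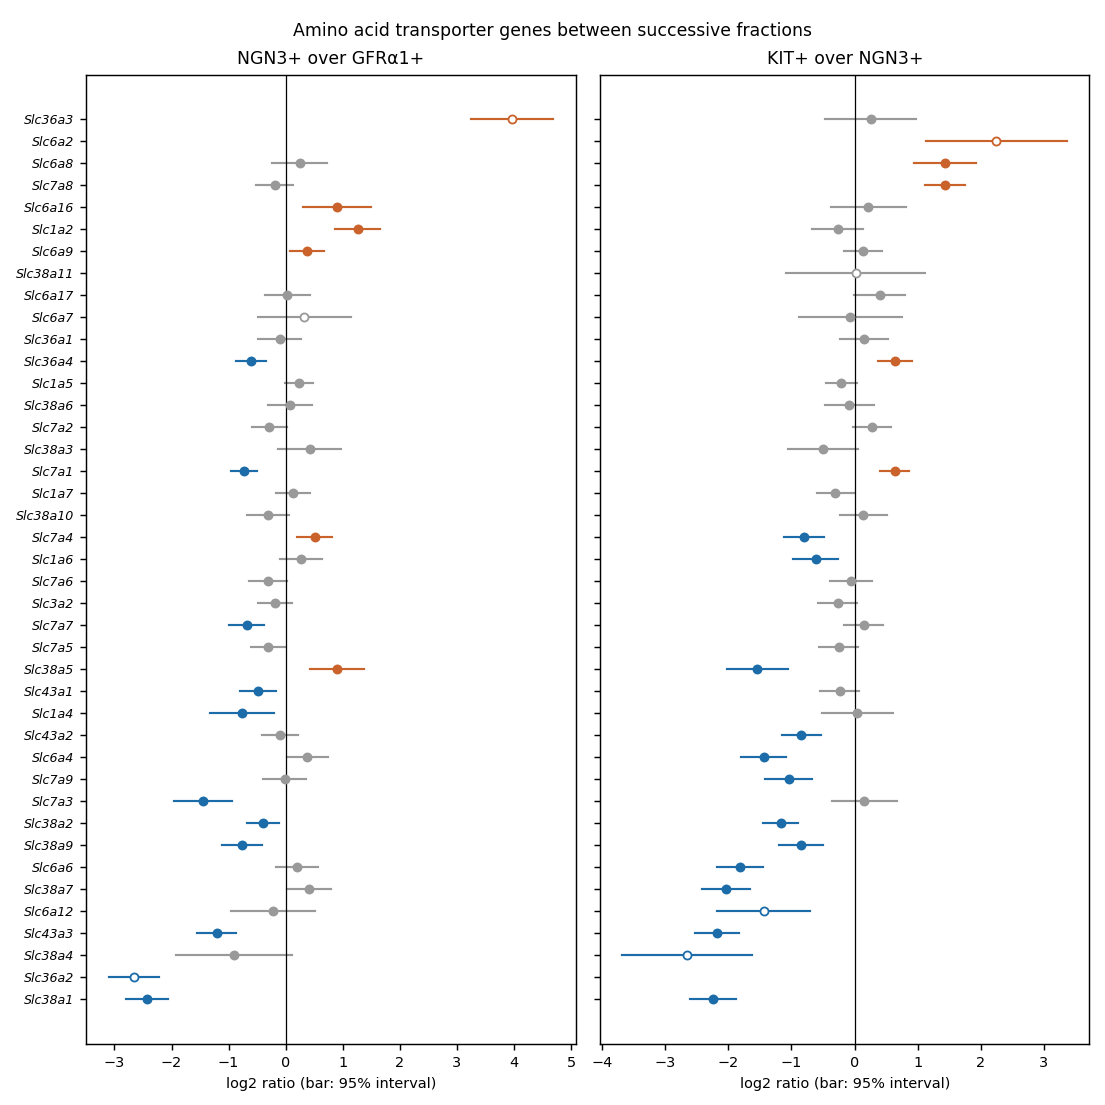
Log2 ratio (x axis) of the amino acid transporter genes shown (y axis) in NGN3+ over GFRα1+ cells, left, and KIT+ over NGN3+ cells, right, with limma 95% intervals. Orange marks genes higher and blue genes lower at an adjusted p under 0.05, gray marks the rest, and hollow points lacked a measured value on some array of either group. The panels share the NGN3+ arrays, and the right panel holds 14 blue genes, Slc38a1, Slc43a3 and Slc38a7 among them.

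Most members could be measured in each fraction. By at least 1 probe, all GFRα1+ arrays measured 37 of 59, with 38 on all NGN3+ arrays, 39 on all KIT+ arrays and 36 on all whole testes arrays (61.0% to 66.1%, against 54.2% to 65.2% of all named genes). On all 12 arrays 29 members were measured by 1 probe. No array measured Slc6a11, Slc6a15, Slc6a18, Slc6a19, Slc7a10, Slc7a11 or Slc7a13. Slc7a11 encodes xCT, the cystine and glutamate exchanger. With these, 14 members were tested in no comparison. The others were Slc1a1, Slc1a3, Slc3a1, Slc6a3, Slc6a14, Slc7a12 and Slc7a14, each measured on 2 arrays or fewer. Slc6a13, Slc7a15 and Slc38a8 were tested only against whole testes.

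The system A carriers were lower in KIT+ than in GFRα1+ cells. Slc38a1 (probe at chr15:96406793-96406852, mm9, in the transcript from base 2748) had log2 levels of 3.23, 2.87 and 3.05 on the GFRα1+ arrays. It was at 0.82, 0.61 and 0.42 on the NGN3+ arrays, at −1.52, −1.47 and −1.87 on the KIT+ arrays, and at −2.75, −2.95 and −2.97 in whole testes. The groups did not overlap at any step. Slc38a1 fell by 2.43 ± 0.16 (SE, n = 3 arrays a group) on the log2 scale from GFRα1+ to NGN3+ cells (limma adjusted p = 5.56e-06) and by 2.24 ± 0.16 from NGN3+ to KIT+ cells (limma adjusted p = 3.64e-05). On the slide that held arrays of all 3 fractions, the first difference was −2.43 as well. A second, dimmer probe of Slc38a1 gave −2.51 (limma adjusted p = 0.0122) and −1.40 (limma adjusted p = 0.147) for the same steps, and was well above background on 1 KIT+ array. The remaining probe was measured on no array.

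Slc38a2 had levels of 2.46, 2.25 and 2.42 in GFRα1+ cells, 2.05, 2.12 and 1.76 in NGN3+ cells, and 0.78, 0.74 and 0.90 in KIT+ cells. In whole testes it was at 0.31, −0.12 and 0.18. The larger step was the later: it fell by 1.17 ± 0.12 from NGN3+ to KIT+ cells (limma adjusted p = 0.000199), after a fall by 0.40 ± 0.12 from GFRα1+ to NGN3+ cells (limma adjusted p = 0.0221). The earlier call did not hold under 8 alternatives, which gave adjusted p-values of 0.051 to 0.139: both other scalings of the arrays, the methods' t-test, the replicate block, the slide as a block and within 1 slide, and the fits without GFRα1+ replicate 1 (−0.36) or NGN3+ replicate 3 (−0.29).

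Slc38a4 was dim but measured on all GFRα1+ arrays (−2.0, −2.15 and −1.65) and all NGN3+ arrays (−2.39, −2.79 and −3.33), and on no KIT+ or whole testes array. For such probes only a bound can be given. The bright group's mean was set against a stand-in for each dim array. This was the dimmest value among all probes well above background on that array, or the probe's own signal if that was larger. Some probes brighter than that value were not called well above background, so these bounds are approximate. Slc38a4 was at least 4.42-fold lower in KIT+ than in NGN3+ cells (limma adjusted p = 0.00214). The ratio of NGN3+ to GFRα1+ cells was −0.90 (95% interval −1.92 to 0.12, limma adjusted p = 0.116). All 3 system A genes were thus lower in KIT+ than in NGN3+ cells and lower in KIT+ than in GFRα1+ cells, where 17.0% and 39.4% of all genes were lower.

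The 2 carriers of the lysosomal membrane in the Slc38 family differed in the step at which they fell. Slc38a9, an arginine-responsive carrier that signals to mTORC1, had levels of 1.40, 0.88 and 1.35 in GFRα1+ cells, 0.61, 0.44 and 0.28 in NGN3+ cells and −0.42, −0.40 and −0.39 in KIT+ cells. It fell by 0.76 ± 0.15 and then by 0.85 ± 0.15 (limma adjusted p = 0.00325 and 0.00319). The other two probes gave −0.65 and −1.18 for the first step and −1.06 and −1.02 for the second, each passing the test. Slc38a7, a lysosomal glutamine carrier, was at −0.49, −0.44 and −0.20 in GFRα1+ cells and 0.27, 0.11 and −0.30 in NGN3+ cells, which overlap. In KIT+ cells it was at −1.99, −1.86 and −2.19, and it fell by 2.04 ± 0.17 from NGN3+ cells (limma adjusted p = 6.55e-05).

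Slc38a5, a system N carrier that moves glutamine with sodium in exchange for protons, peaked in NGN3+ cells. Its levels were 1.09, 1.53 and 1.31 in GFRα1+ cells, 2.53, 2.25 and 1.84 in NGN3+ cells, 0.85, 0.80 and 0.36 in KIT+ cells and 1.92, 1.85 and 1.84 in whole testes. It rose by 0.90 ± 0.21 from GFRα1+ to NGN3+ cells (limma adjusted p = 0.00672) and fell by 1.54 ± 0.21 from NGN3+ to KIT+ cells (limma adjusted p = 0.000734). The rise was as large on the shared slide, 0.90, but with 1 GFRα1+ array there its adjusted p was 0.0545, and 0.0522 with the slide as a block. The other system N gene, Slc38a3, showed no call among the sorted fractions, with ratios of 0.42 (95% interval −0.14 to 0.98) and −0.50 (−1.06 to 0.06). Slc38a6 and Slc38a10 were measured on every array and were not called between any pair of fractions.

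**Figure D2:**
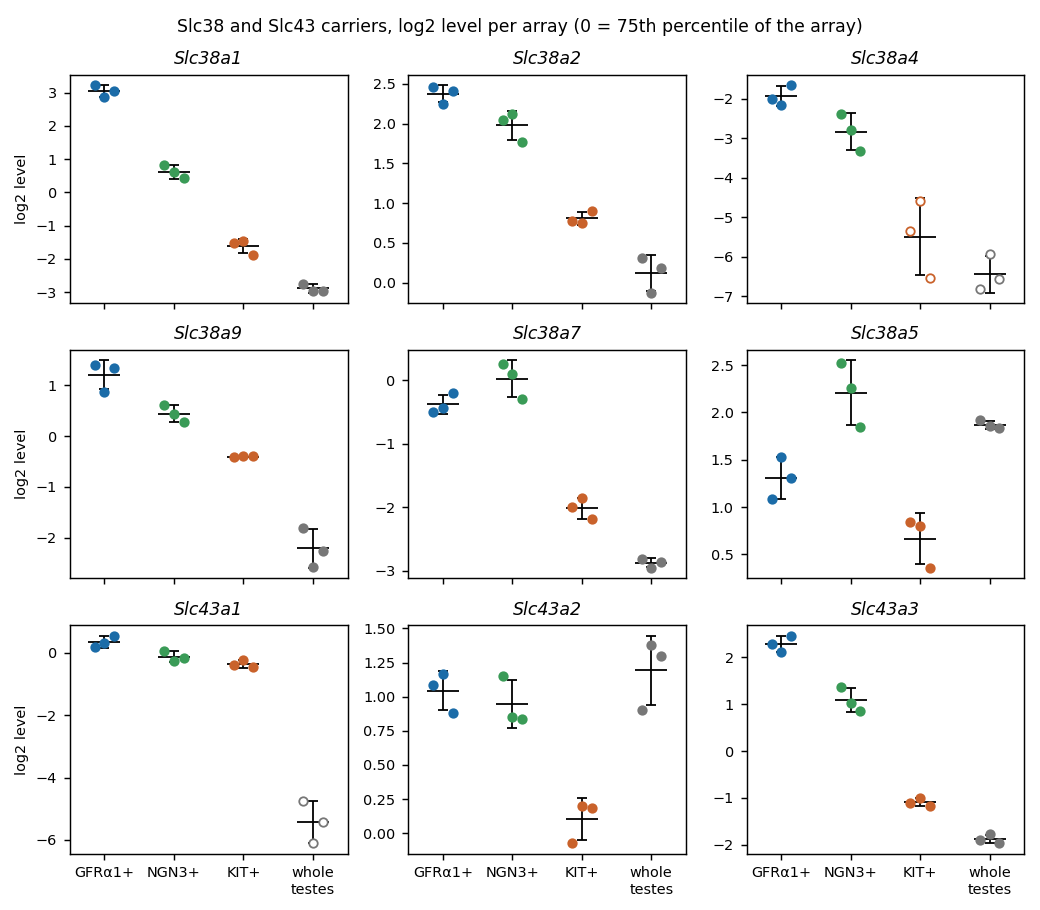
Log2 level (y axis, scaled separately for each gene) on each array of the 4 groups (x axis) for 6 Slc38 and 3 Slc43 genes, with the mean and SD of 3 arrays in black. Hollow points mark groups in which the probe was not well above background on all 3 arrays. Slc38a1 descended from 3.23 to −1.87 over the sorted arrays with no overlap between fractions, and Slc38a5 was highest in NGN3+ cells.

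All 3 Slc43 genes were lower in KIT+ than in GFRα1+ cells, where 39.4% of all genes were lower. Slc43a3, known as a carrier of purine nucleobases although named with this family, had levels of 2.30, 2.13 and 2.46 in GFRα1+ cells, 1.37, 1.04 and 0.86 in NGN3+ cells, −1.10, −1.01 and −1.17 in KIT+ cells and −1.90, −1.78 and −1.96 in whole testes. It fell by 1.21 ± 0.15 (limma adjusted p = 0.000229) and then by 2.18 ± 0.15 (limma adjusted p = 3.08e-05), and no group overlapped the next. Slc43a1 and Slc43a2 carry large neutral amino acids without sodium. Slc43a2 overlapped between GFRα1+ and NGN3+ arrays (0.88 to 1.16 and 0.83 to 1.15) and lay at −0.07, 0.20 and 0.18 in KIT+ cells, a fall by 0.84 ± 0.14 from NGN3+ cells (limma adjusted p = 0.00174).

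Slc43a1 fell by 0.48 ± 0.14 from GFRα1+ to NGN3+ cells (limma adjusted p = 0.0168), from 0.18, 0.33 and 0.55 to 0.07, −0.26 and −0.18. That call was lost without NGN3+ replicate 2 (−0.41, adjusted p = 0.0694) or NGN3+ replicate 3 (−0.45, adjusted p = 0.0527), with the methods' t-test (0.0629) and with the percentile over probes measured on every array (0.0576). Its ratio of KIT+ to NGN3+ cells was −0.24 (95% interval −0.55 to 0.08).

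Slc3a2, the CD98 heavy chain that carries most light chains to the surface, varied little among the sorted fractions. Its levels were 5.51, 5.50 and 5.62 in GFRα1+ cells, 5.59, 5.36 and 5.12 in NGN3+ cells, 5.02, 5.20 and 5.06 in KIT+ cells, and 3.95, 3.79 and 3.72 in whole testes. Neither single step passed the test, with ratios of −0.18 (95% interval −0.49 to 0.12) and −0.27 (−0.57 to 0.04). From GFRα1+ to KIT+ cells it fell by 0.45 ± 0.13 (limma adjusted p = 0.0145), a call that did not hold with quantile normalization (−0.21), with normexp background correction (−0.23), within 1 slide (−0.53, adjusted p = 0.0683) or without KIT+ replicate 1 (−0.41, adjusted p = 0.0504). The step from NGN3+ to KIT+ cells passed with quantile normalization (−0.33, adjusted p = 0.0252) and without NGN3+ replicate 3 (−0.39, adjusted p = 0.0494). The other heavy chain, Slc3a1, was measured on 1 KIT+ array and no other.

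Among the light chains, Slc7a8 was the one that rose. Slc7a8 encodes the light chain of a broad neutral amino acid exchanger (LAT2). Its levels were −0.65, −0.40 and −0.68 in GFRα1+ cells, −0.74, −0.94 and −0.64 in NGN3+ cells and 0.68, 0.83 and 0.47 in KIT+ cells. The KIT+ arrays lay above both other fractions, and Slc7a8 rose by 1.43 ± 0.14 from NGN3+ cells (limma adjusted p = 0.000136) and by 1.24 ± 0.14 from GFRα1+ cells (limma adjusted p = 6.15e-05). Whole testes spread from −0.83 to 0.27.

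Slc7a9, whose product is known to pair with the Slc3a1 heavy chain to carry cystine and dibasic amino acids, overlapped between GFRα1+ and NGN3+ cells (−0.32 to −0.09 and −0.37 to 0.04) and was lower in KIT+ cells (−1.10, −1.08 and −1.53), a fall by 1.04 ± 0.16 (limma adjusted p = 0.00146). Slc7a7 fell at the earlier step, by 0.68 ± 0.13 (limma adjusted p = 0.00294), from 0.49, 0.41 and 0.66 to −0.42, −0.02 and −0.03, and lay at 0.04, −0.08 and 0.00 in KIT+ cells. Slc7a7 and Slc7a6 are light chains that exchange cationic for neutral amino acids.

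Slc7a5, the light chain of the leucine-preferring exchanger LAT1, was at 2.32, 2.24 and 2.28 in GFRα1+ cells, 2.26, 1.85 and 1.81 in NGN3+ cells and 1.67, 1.81 and 1.68 in KIT+ cells. It fell by 0.56 ± 0.13 from GFRα1+ to KIT+ cells (limma adjusted p = 0.00499), where its second probe gave −0.44 (limma adjusted p = 0.0303). The single steps were −0.31 (limma adjusted p = 0.0773) and −0.25 (limma adjusted p = 0.185), and the first passed without NGN3+ replicate 1 (−0.45, adjusted p = 0.00764). Within the shared slide the ratio of KIT+ to GFRα1+ cells was the same, −0.56, with an adjusted p of 0.0588. Slc7a6 fell by 0.37 ± 0.15 from GFRα1+ to KIT+ cells at the edge of the threshold (limma adjusted p = 0.0478). It lost that call without any 1 of 5 arrays, all but GFRα1+ replicate 3, at −0.23 to −0.42 (adjusted p = 0.0678 to 0.166), and was at −0.10 within 1 slide. Without GFRα1+ replicate 3 its earlier step passed instead (−0.45, adjusted p = 0.0205).

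The cationic carriers of Slc7 moved in different ways. Slc7a1, the main carrier of arginine and lysine in many cells, dipped in NGN3+ cells, with levels of 3.98, 3.93 and 4.0 in GFRα1+ cells, 3.17, 3.21 and 3.35 in NGN3+ cells, 3.77, 3.96 and 3.90 in KIT+ cells and 1.85, 1.45 and 1.55 in whole testes. It fell by 0.73 ± 0.10 (limma adjusted p = 0.000414) and then rose by 0.63 ± 0.10 (limma adjusted p = 0.00152). Its ratio of KIT+ to GFRα1+ cells was −0.09 (95% interval −0.32 to 0.14). Slc7a3 fell by 1.45 ± 0.22 from GFRα1+ to NGN3+ cells (limma adjusted p = 0.000751), from −1.22, −1.25 and −1.71 to −2.91, −3.12 and −2.50, and was at −2.76, −2.97 and −2.34 in KIT+ cells. Slc7a2 was not called between any pair of fractions.

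Slc7a4, related in sequence to the cationic carriers, was at −0.19, −0.01 and −0.10 in GFRα1+ cells, 0.56, 0.52 and 0.15 in NGN3+ cells and −0.38, −0.53 and −0.27 in KIT+ cells. It rose by 0.51 ± 0.14 (limma adjusted p = 0.0127) and fell by 0.80 ± 0.14 (limma adjusted p = 0.00225). The rise did not pass without NGN3+ replicate 2 (0.45, adjusted p = 0.0542), with the methods' t-test (0.0509), or with the slide as a block (0.0796) or within 1 slide (0.10).

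**Figure D3:**
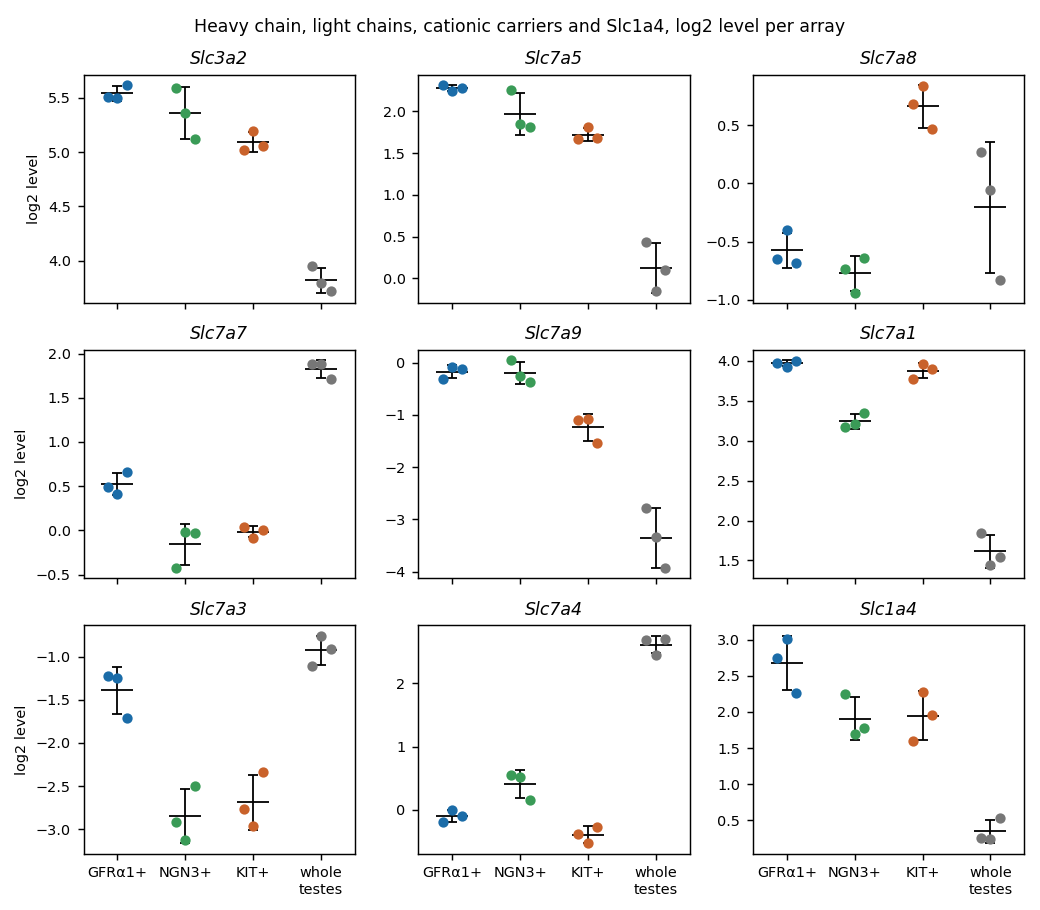
Log2 level (y axis, scaled separately for each gene) on each array of the 4 groups (x axis) for the heavy chain Slc3a2, 4 light chains, 3 cationic carriers and Slc1a4, with the mean and SD of 3 arrays in black. Slc7a8 was highest in KIT+ cells, Slc7a1 was lowest among sorted cells in NGN3+ cells, and Slc3a2 stayed between 5.02 and 5.62 on the sorted arrays.

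The Slc1 family holds the glutamate carriers and the neutral exchangers Slc1a4 and Slc1a5. Slc1a4, which exchanges alanine, serine and cysteine, had levels of 2.75, 3.01 and 2.27 in GFRα1+ cells and 2.24, 1.70 and 1.78 in NGN3+ cells. Its fall by 0.77 ± 0.25 (limma adjusted p = 0.0262) was smaller on the shared slide and depended on single arrays: within the shared slide the ratio was −0.36 (adjusted p = 0.381), and the call was lost without GFRα1+ replicate 1 (−0.73, adjusted p = 0.0694), GFRα1+ replicate 2 (−0.60, 0.0855), NGN3+ replicate 2 (−0.66, 0.0936) or NGN3+ replicate 3 (−0.71, 0.0797). It was also lost with quantile normalization (0.0539), the percentile over probes measured on every array (0.0594) and the methods' t-test (0.0913). In KIT+ cells Slc1a4 was at 1.60, 2.28 and 1.95.

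Slc1a5, a glutamine exchanger, stayed within −0.11 and 0.37 on all sorted arrays and was not called between sorted fractions by its brighter probe. Its dimmer probe rose by 0.29 in NGN3+ cells and fell by 0.31 in KIT+ cells (limma adjusted p = 0.0327 and 0.041), against 0.23 and −0.21 (limma adjusted p = 0.0972 and 0.179) by the brighter one. Of the glutamate carriers, Slc1a6 fell by 0.62 ± 0.16 from NGN3+ to KIT+ cells (limma adjusted p = 0.0165), a call lost without NGN3+ replicate 1 (−0.51, adjusted p = 0.0596) or KIT+ replicate 3 (−0.48, adjusted p = 0.0611) and with the methods' t-test (0.0819). Slc1a7 was not called among the sorted fractions, and Slc1a1 was measured on 2 GFRα1+ arrays (−2.93 and −3.1) and nowhere else.

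Several Slc6 carriers of amines and osmolytes changed between NGN3+ and KIT+ cells, in both directions. Slc6a8, the creatine carrier, rose by 1.43 ± 0.21 (limma adjusted p = 0.00118), from −2.99, −2.54 and −3.32 to −1.63, −1.58 and −1.35, and its GFRα1+ levels were −3.32, −2.88 and −3.38. Slc6a2, the norepinephrine carrier, was measured on all KIT+ arrays (−2.24, −1.95 and −2.45), on 1 array each of GFRα1+ and NGN3+ cells and on no whole testes array. Its log2 difference of KIT+ from NGN3+ cells was 2.25 (limma adjusted p = 0.00773), most of it against arrays that did not measure the probe, so its size is uncertain. Its ratio to GFRα1+ cells was 2.11 (limma adjusted p = 0.00441), and 1.56 with the slide as a block (adjusted p = 0.0816).

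Slc6a6, the taurine carrier, overlapped between GFRα1+ cells (1.23, 1.14 and 1.56) and NGN3+ cells (1.73, 1.53 and 1.26) and fell by 1.81 ± 0.16 to KIT+ cells (−0.15, −0.35 and −0.43; limma adjusted p = 8.9e-05). Slc6a4, the serotonin carrier, fell by 1.44 ± 0.16 at the same step (limma adjusted p = 0.000238), from −2.23, −2.22 and −2.38 to −3.70, −3.63 and −3.83. Slc6a12, a carrier of betaine and GABA, was measured on all NGN3+ arrays (−4.20, −3.85 and −3.56) and on 1 KIT+ array, with a ratio of −1.44 (limma adjusted p = 0.00888, and 0.085 by the methods' t-test).

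Slc6a9, the glycine carrier GlyT1, was higher on every sorted array than in whole testes. Its levels were 3.20, 3.39 and 3.06 in GFRα1+ cells, 3.77, 3.51 and 3.51 in NGN3+ cells, 3.62, 3.85 and 3.73 in KIT+ cells and 0.39, 0.01 and 0.10 in whole testes. It rose by 0.51 ± 0.13 from GFRα1+ to KIT+ cells (limma adjusted p = 0.00706). The earlier step, a rise by 0.38 ± 0.13 (limma adjusted p = 0.0345), was lost without any 1 of 5 arrays, all but GFRα1+ replicate 2, at 0.29 to 0.42 (adjusted p = 0.0509 to 0.10), and its second probe, which overlaps the first, gave 0.33 (limma adjusted p = 0.0644). Slc6a17, a carrier of neutral amino acids known from synaptic vesicles, was measured on all sorted arrays and not called between them. The same held for Slc6a7, the proline carrier, on all NGN3+ and KIT+ arrays.

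**Figure D4:**
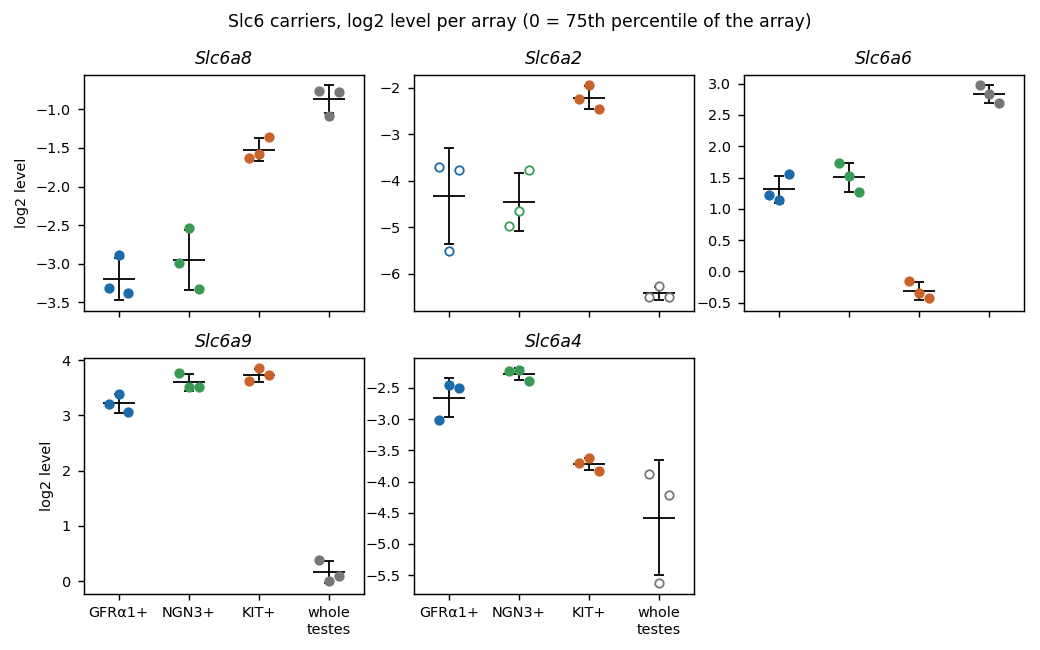
Log2 level (y axis, scaled separately for each gene) on each array of the 4 groups (x axis) for 5 Slc6 carriers, with the mean and SD of 3 arrays in black. Hollow points mark groups in which the probe was not well above background on all 3 arrays. Slc6a8 and Slc6a2 were higher in KIT+ than in NGN3+ cells, and Slc6a6 and Slc6a4 were lower.

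The proton-coupled Slc36 carriers each had a pattern of their own. Slc36a2, a carrier of glycine and proline, was measured on the GFRα1+ arrays (−3.11, −2.75 and −3.20) and on no other array. It was at least 4.31-fold lower in NGN3+ cells (limma adjusted p = 1.03e-05). Slc36a4, a carrier of proline and tryptophan, dipped in NGN3+ cells: levels of −0.11, −0.20 and −0.06 in GFRα1+ cells, −0.93, −0.70 and −0.56 in NGN3+ cells and −0.12, −0.11 and −0.02 in KIT+ cells. It fell by 0.60 ± 0.12 and rose by 0.64 ± 0.12 (limma adjusted p = 0.00248 and 0.00299). Its second, dimmer probe gave −0.45 and 0.07, neither passing the test (limma adjusted p = 0.11 and 0.831).

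The probes of Slc36a1, a lysosomal carrier of small amino acids, disagreed. The brighter was at −1.43 to −0.76 in GFRα1+ cells and −1.30 to −1.09 in NGN3+ cells, a ratio of −0.10 (95% interval −0.48 to 0.27). The dimmer rose by 0.96 ± 0.19 (limma adjusted p = 0.00262), from a group in which it was well above background on 2 of 3 arrays.

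Of the 6 members higher in NGN3+ than in GFRα1+ cells, Slc36a3, Slc1a2 and Slc6a16 were at their highest in whole testes, as was Slc7a4. Slc36a3, a Slc36 member known from testis, was measured on no GFRα1+ array, and was at −1.19, −0.18 and −0.66 in NGN3+ cells, −0.15, −0.91 and −0.21 in KIT+ cells and 2.07, 2.29 and 2.12 in whole testes. It was at least 12.7-fold higher in NGN3+ than in GFRα1+ cells (limma adjusted p = 1.64e-05), and KIT+ and NGN3+ arrays overlapped (ratio 0.25, 95% interval −0.47 to 0.98). Slc1a2, a glutamate carrier, was at −2.44, −2.73 and −2.78 in GFRα1+ cells, −1.68, −1.24 and −1.25 in NGN3+ cells and −1.48, −1.93 and −1.56 in KIT+ cells, against 1.47 to 1.73 in whole testes. It rose by 1.26 ± 0.18 (limma adjusted p = 0.000455).

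Slc6a16, an orphan carrier with no settled substrate, rose by 0.90 ± 0.26 (limma adjusted p = 0.0181), from −2.20, −1.97 and −2.57 to −1.81, −1.44 and −0.79, and was at 1.39 to 1.68 in whole testes. That call was lost without GFRα1+ replicate 3 (0.74, adjusted p = 0.0532) and by the methods' t-test (0.105). As a percentage of the whole testes mean, Slc36a3 was at 1.11% or less in GFRα1+, where it was not measured, 14% in NGN3+ and 16.7% in KIT+ cells. The values were 5.19%, 12.4% and 10.3% for Slc1a2 and 7.28%, 13.6% and 15.8% for Slc6a16. The 12 spermatid markers had medians of 0.269%, 8.80% and 12.1%, the 12 spermatocyte markers 2.31%, 11.3% and 14%, and the 16 Sertoli cell markers 6.97%, 12.6% and 14.6%. The part of these cells in the 3 rises was not tested. The median of the 8 myoid markers (5.97%, 28.6% and 12.1%) was highest among sorted cells in NGN3+ cells. So was that of the 11 endothelial markers (18.9%, 21.6% and 18.1%). Slc7a4 (15.2%, 21.6% and 12.4%) and Slc38a5 (68.0%, 126.5% and 43.5%) were also highest there, and the part of myoid and endothelial cells in those values was not tested either. Slc38a5, at 126.5% of whole testes in NGN3+ cells, and Slc6a9, at 1078%, were above the level of whole testes, and the part of other cells in these values was not tested.

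**Figure D5:**
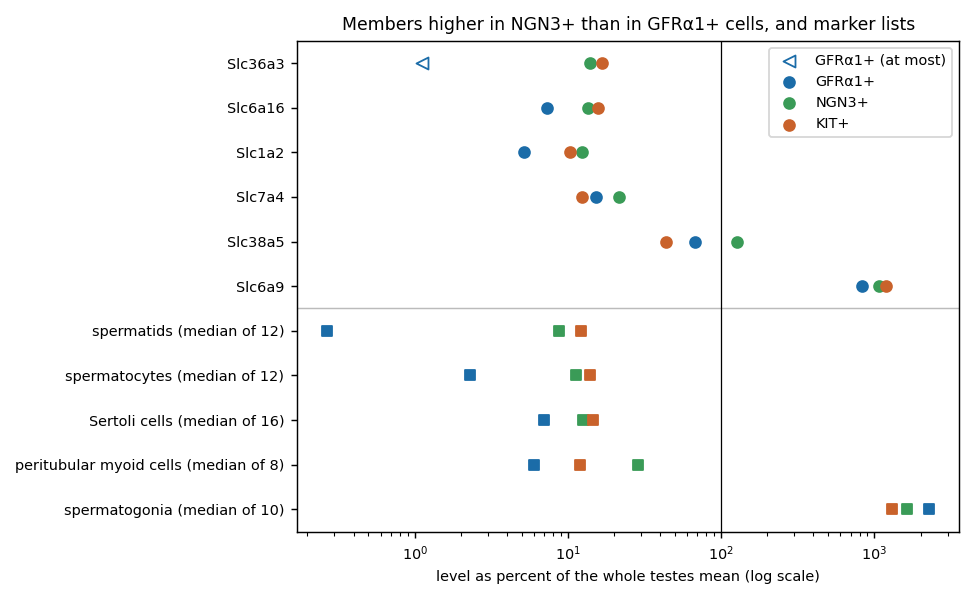
Mean level as a percentage of the whole testes mean (x axis, log scale) in GFRα1+, NGN3+ and KIT+ cells for the 6 members higher in NGN3+ than in GFRα1+ cells (circles, with a hollow triangle at the upper bound of 1.11% for unmeasured Slc36a3 in GFRα1+ cells) and for the median of 5 marker lists (squares). Slc36a3, Slc6a16 and Slc1a2 lay at 12.4% to 14% in NGN3+ cells, beside spermatid, spermatocyte and Sertoli cell medians of 8.80% to 12.6%.

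Against whole testes, the GFRα1+ fraction was higher in all 3 system A genes, Slc3a2 and Slc7a1, and lower in Slc36a3, Slc1a2, Slc6a16 and Slc7a4. Of 43 members tested on all 12 arrays, 20 were higher in GFRα1+ cells (46.5%, against 50% of all genes) and 16 lower (37.2%, against 37.6%), and levels of 38 did not overlap, as was so for 87.3% of all genes. The median ratio of the members was 0.32, and that of all genes 0.39. Slc38a1 was higher by 5.94 ± 0.15 on the log2 scale, 61.4-fold (limma adjusted p = 9.72e-11), and its level in KIT+ cells was still 241% of that of whole testes. Slc43a1 was measured on every sorted array and on no whole testes array, and was at least 29.5-fold higher in GFRα1+ cells (limma adjusted p = 2.23e-09). Slc38a4 was at least 6.51-fold higher on the same basis.

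The other large differences in this direction were 4.18 for Slc43a3, 3.42 for Slc38a9, 3.18 for Slc7a9, 3.05 for Slc6a9, 2.50 for Slc38a7, 2.35 for Slc7a1, 2.33 for Slc1a4, 2.26 for Slc38a2, 2.15 for Slc7a5, 2.08 for Slc38a6 and 1.72 for Slc3a2, all past the threshold by limma. Second probes gave 1.16 for Slc7a5 and 3.21 for Slc6a9, and the further probes of Slc38a9 gave 3.80 and 2.06. Slc6a4, measured on 1 whole testes array, gave 1.92, and 1.15 within 1 slide (adjusted p = 0.0679). Bounds were at least 5.47-fold for Slc7a2, 3.07-fold for Slc36a2, 2.94-fold for Slc38a3 and 2.69-fold for Slc6a17. Slc7a6 was higher by 0.99.

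In the other direction Slc36a3 was at least 90.4-fold lower in GFRα1+ cells than in whole testes (limma adjusted p = 1.11e-09). Slc6a13, a GABA carrier, was at least 4.47-fold lower, Slc7a15 at least 2.21-fold and Slc38a11 at least 2.19-fold. The last did not pass within 1 slide (−1.99, adjusted p = 0.233) or with normexp background correction (adjusted p = 0.0541). Differences measured on both sides were −4.27 for Slc1a2, −3.78 for Slc6a16, −2.72 for Slc7a4, −2.32 for Slc6a8, −2.27 for Slc1a7, −1.59 for Slc6a12, −1.52 for Slc6a6, −1.30 for Slc7a7 and −1.18 for Slc36a1, whose dimmer probe gave −2.85. Slc1a5 gave −0.31 (limma adjusted p = 0.0446) with overlapping groups, against 0.08 by its dimmer probe. That call was lost with the slide as a block (−0.07), in 4 other settings and without any 1 of 5 arrays, all but whole testes replicate 1, at −0.23 to −0.34 (adjusted p = 0.0504 to 0.158). Slc6a7, measured on 1 GFRα1+ array, gave −1.72, which did not pass within 1 slide (−1.37, adjusted p = 0.224). Slc38a5 gave −0.56 (limma adjusted p = 0.0172), and did not pass without GFRα1+ replicate 1 (−0.45, adjusted p = 0.0696) or with the slide as a block or within 1 slide (−0.61, adjusted p = 0.0999 and 0.15).

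Slc7a8 differed in the same comparison only in some settings: −0.37 (95% interval −0.89 to 0.16), but −0.68 without whole testes replicate 3 (adjusted p = 0.00299), −0.79 with the slide as a block or within 1 slide (adjusted p = 0.0357 and 0.0404) and −0.77 with the percentile over probes measured on every array (adjusted p = 0.0106).

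Several genes that sense amino acids for mTORC1 were lower in NGN3+ than in GFRα1+ cells. Of 28 such genes 14 were lower and none was called higher at that step by limma (36.3% of all genes were lower). Their median log2 ratio there was −0.29, against −0.19 for all genes. From NGN3+ to KIT+ cells 8 rose and 5 fell (17.5% and 17.0% of all genes). The dependence of these counts, and of those of the gene lists below, on the scaling of the arrays was not tested. Sesn2, a leucine sensor, fell by 1.35 ± 0.12 at the first step (limma adjusted p = 2.74e-05), Seh1l, a subunit of the GATOR2 complex, by 0.89 ± 0.11, and Castor2, a relative of the arginine sensor Castor1, by 0.79 ± 0.12. Between NGN3+ and KIT+ cells Rragd, a Rag GTPase that recruits mTORC1 to the lysosome, fell by 3.51 ± 0.21 (limma adjusted p = 2.09e-05), Sesn1 fell by 1.53 ± 0.12 and Castor1 rose by 1.62 ± 0.19 (limma adjusted p = 0.000368).

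The amino acid response list holds the kinase that senses uncharged tRNA, its factor Atf4 and Atf4 targets. Of its 20 genes, NGN3+ cells had 4 higher and 8 lower against GFRα1+ cells, where 20% of all genes were higher and 36.3% lower. In KIT+ against NGN3+ cells 5 were higher and 10 lower, with 17.5% and 17.0% over all genes. Atf4 fell by 0.83 ± 0.14 at the first step (limma adjusted p = 0.00115) and had a ratio of −0.14 at the second. Its targets did not move as 1 group: at the first step Chac1 and Atf3 fell by 1.53 ± 0.12 and 1.75 ± 0.29 while Asns, the asparagine synthetase, rose by 0.82 ± 0.09 and Trib3 by 1.04 ± 0.18. At the second step Ddit4, an inhibitor of mTORC1, fell by 3.1 ± 0.16 and Trib3 by 2.35 ± 0.18, and Chac1 rose by 1.01 ± 0.12.

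Of 9 tested genes of glutathione and cysteine metabolism, 1 rose and 5 fell from GFRα1+ to NGN3+ cells, against 20% and 36.3% of all genes. Gclc, which makes the rate-limiting precursor of glutathione, fell by 1.03 ± 0.10 (limma adjusted p = 4.4e-05), Cth, which makes cysteine, by 1.36 ± 0.17, and Txnrd1 by 1.06 ± 0.15. Gpx4 rose by 0.97 ± 0.14 at this step and by 0.64 ± 0.14 at the next, where Gpx1 fell by 1.16 ± 0.16. Among other amino acid carriers, of peptides, of vesicles and of the mitochondrial membrane, 5 of 12 tested were lower and 3 higher in NGN3+ cells, close to the same shares of all genes. Of 13 tested between KIT+ and NGN3+ cells 5 were lower and 2 higher, with 17.0% and 17.5% over all genes. Slc25a15, the mitochondrial ornithine carrier, fell by 0.93 ± 0.18 and then by 1.47 ± 0.18, and Slc16a10, a carrier of aromatic amino acids, rose by 1.68 ± 0.19 in KIT+ cells (limma adjusted p = 0.000318). Slc32a1, the vesicular carrier of GABA and glycine, rose by 1.66 ± 0.18 in NGN3+ cells (limma adjusted p = 9.83e-05), and Slc17a7, a vesicular glutamate carrier, by 0.85 ± 0.17 there and by 1.2 ± 0.17 in KIT+ cells. Against whole testes 24 of 28 sensing genes, 13 of 20 response genes, 7 of 9 glutathione genes and 9 of 13 of these carriers were higher in GFRα1+ cells, where 50% of all genes were.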

How the data were processed

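Samples were grouped by their labels, with the sorts as the study's methods describe them. The authors scanned the arrays and extracted spots with Agilent Feature Extraction (10.7.3.1 per the submitters' processing notes, 10.7.1.1 and 10.7.3.1 per the file headers). They deposited the processed signal, a background-subtracted intensity on a linear scale, with quality flags, and a second table, in log2, which holds this signal minus the 75th percentile of each array: 99.8% to 100.0% of probes lay within 0.01 of a constant difference, with no centering of genes. Its column medians were −3.84, −3.84 and −3.66 for GFRα1+, −3.56, −3.54 and −3.48 for NGN3+, −3.49, −3.63 and −3.60 for KIT+ and −3.45, −3.44 and −3.48 for whole testes arrays. The authors analyzed them in GeneSpring by t-test, adjusted by the Benjamini-Hochberg method.

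Here log2 of the processed signal minus the 75th percentile of each array (318 to 675 in intensity) was used. Control spots and 103 to 274 outlier spots an array were left out, spots of a probe were averaged, and no spot was saturated. The brightest probe by mean stood for a gene. Probe positions are mm9 per the file headers. Limma 3.58.1 (R 4.3.3; lmFit, eBayes) compared the fractions over 9 arrays, and GFRα1+ cells with whole testes over 12, adjusted over all genes tested. The study states that the samples of each cell type came from different animals, and whether NGN3+ and KIT+ samples shared mice is not given in the sources used here. Only 3 arrays a group limit the precision, and the smallest p of an exact permutation test at this size is 0.1.

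Named in each comparison were up to 10 rises and 10 falls, all Slc3 and Slc7a5 to Slc7a13 genes, up to 5 bounds a direction and up to 3 genes of each of 4 pathway lists by adjusted p. Other genes were named after their values were seen. The results of 1 member, which the counts include, are not reported here. Members and lists were chosen with earlier results of these data known. The fit was tested on simulated data. Alternatives were other scalings, the authors' table, normexp background correction, other filters and probes, the methods' t-test, replicate and slide blocks, single slides and leaving out each array. Their results are given for transporters only, and genes of the pathway lists were not followed through them.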

Additional observations from a re-analysis of the deposited data

How the results depend on the processing

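Of 102 single-gene results of transporters named by the rule, 92 were called. Under every alternative, 81 of the 102 kept their call and its direction, or stayed uncalled. None of the 92 changed direction. A change of sign in a result that stayed uncalled was not counted. Counts of members in NGN3+ against GFRα1+ cells, 6 higher and 11 lower, were the least stable. There were 10 higher with the percentile set from only those probes that all arrays measured, 3 higher with the methods' t-test and 3 within 1 slide, and 18 lower with no filter on dim probes, which tests more genes. Leaving out 1 array gave 4 to 7 higher and 8 to 13 lower. In KIT+ against NGN3+ cells, leaving out 1 array gave 6 higher and 13 to 15 lower, in KIT+ against GFRα1+ cells 8 to 9 higher and 17 to 21 lower, and in GFRα1+ cells against whole testes 20 to 21 higher and 15 to 16 lower. In the last comparison 13 members were higher when only probes measured on every array of both groups were tested, by construction. Same-numbered arrays of the fractions did not deviate together (r = −0.51 to 0.25 over 24887 probes), so the numbers were not taken as pairs. Differently numbered NGN3+ and KIT+ arrays reached r = 0.51 (NGN3+ 1 with KIT+ 2) and 0.43 (NGN3+ 2 with KIT+ 1), and no label pairs them. With the replicate block 5 members were higher and 10 lower in NGN3+ against GFRα1+ cells, 6 and 14 in KIT+ against NGN3+ cells, 9 and 19 in KIT+ against GFRα1+ cells, and 20 and 15 in GFRα1+ cells against whole testes.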
